A study of Mus musculus with 4 samples.

Results

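The genes described here are the neuronal tubulins Tuba1a, Tubb2a, Tubb2b and Tubb3 and the microtubule regulators Dcx, Stmn1, Stmn2, Map1b, Mapt and Map2. They were chosen by name for their known rise from progenitors to neurons, and all 10 were found among the 16600 genes of the table. The data are single-cell (sc) RNA-Seq of sorted CD24+ CD45- cells from the cortex of C57BL/6J mouse fetuses at E18.5, with 2 Setd5+/+ libraries (WT3 and WT6) and 2 Setd5+/- libraries (Het5 and Het9), 1 fetus each. The Setd5+/- fetuses were heterozygous for the Setd5 GFP allele, a knockout of Setd5 in the whole animal, and the Setd5+/+ fetuses were wild type. The sort took cells with CD24, a pan-neuronal surface protein, and left out cells with CD45, a protein of blood cells.

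Microtubules are hollow polymers of paired alpha and beta tubulin, and a growing neuron needs large amounts of both to extend its axon and dendrites. Tuba1a is the main alpha tubulin of postmitotic neurons, Tubb2a and Tubb2b are closely related neuronal beta tubulins, and Tubb3 is the neuron-specific beta tubulin used as a marker of young neurons. Doublecortin (Dcx) and the structural proteins Map1b, tau (Mapt) and Map2 bind and stabilize the polymer, while the stathmins Stmn1 and Stmn2 bind free tubulin and favor its release. Pallial progenitors of the dorsal cortex give rise to excitatory neurons, and subpallial progenitors give rise to cortical interneurons and striatal neurons.

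The libraries held 1445 to 1954 cells and 8205330 to 11742956 unique molecular identifiers (UMIs, 1 per captured molecule), with medians of 5398 to 5997 UMIs per cell. Of the barcodes, 56 occurred in all 4 libraries, and these 224 cells, all in clusters of melanocyte and immune genes, were left out. Another 53 cells with a barcode in 2 or 3 libraries were kept. Levels are given as the mean over cells of the counts per 10000 UMIs of the cell, and library values are given in the order WT3, WT6, Het5 and Het9. The kit reads the 3′ end of each molecule, so a level does not grow with the length of the transcript and can be set beside that of another gene. A batch, a litter or a day of preparation is not given in the labels.

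Cells were put into 9 classes by UMIs of marker genes that include none of the 10 genes. The pallial side had radial glia-like cells (297), cycling pallial cells (409), Neurog2 progenitors (715), later cells with Eomes but no Neurog2 (322, called late Eomes cells) and pallial neurons (1240). The subpallial side had cycling cells (1009), neuroblasts (317), interneurons (222) and striatal neurons (172). Another 1533 cells fitted no class, and 326 cells were left out in all, 102 of them for markers of blood, vascular, pigment or Cajal-Retzius cells. A cluster with Cajal-Retzius genes held 370 cells, none with a barcode shared by all 4 libraries. Most of that cluster was therefore not left out, and how its cells fell into the classes was not counted. Each class is a range of marker UMIs and not a sharp type. Of the cells in cycling classes, 223 sat at the minimum of 2 cycling UMIs, 58 of the interneurons and 31 of the striatal neurons had the minimum sum of 2, and 964 cells with exactly 1 cycling UMI were kept out of every class. Some markers were not used in the gates. The radial glial gene Fabp7 averaged 39.7 counts per 10000 in radial glia-like cells. Gad1, the GABA-making enzyme, averaged 1.76 in interneurons, and Foxp1 averaged 7.19 in striatal neurons. The glutamate transporter Slc17a7 averaged only 0.0900 in pallial neurons. Foxp1 varied among libraries, from 3.31 to 12.9. Some markers of neurons did not follow the class names. Rbfox3, a gene of postmitotic neurons, averaged 1.66 in Neurog2 progenitors, 1.67 in late Eomes cells and 1.23 in pallial neurons, and only 0.181 to 0.236 in the neuroblasts, interneurons and striatal neurons. Slc17a6, another glutamate transporter, averaged 1.07 in Neurog2 progenitors, 1.26 in late Eomes cells and 0.550 in pallial neurons. Sox2, a factor of progenitors, averaged 3.96 in interneurons and 0.0582 in pallial neurons.

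Together the 10 genes took a larger part of the UMIs in neurons than in cycling cells of both lineages. Their share of all UMIs averaged 0.860% ± 0.0349 (SD, n = 4) in radial glia-like cells, 1.43% ± 0.0543 in cycling pallial cells, 1.47% ± 0.0655 in Neurog2 progenitors, 2.14% ± 0.0642 in late Eomes cells and 3.05% ± 0.0891 in pallial neurons. On the subpallial side it averaged 1.93% ± 0.138 in cycling cells, 3.57% ± 0.147 in neuroblasts, 3.49% ± 0.316 in interneurons and 3.72% ± 0.103 in striatal neurons. The groups of library values of pallial neurons and of cycling cells of either lineage did not overlap.

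**Figure D1:**
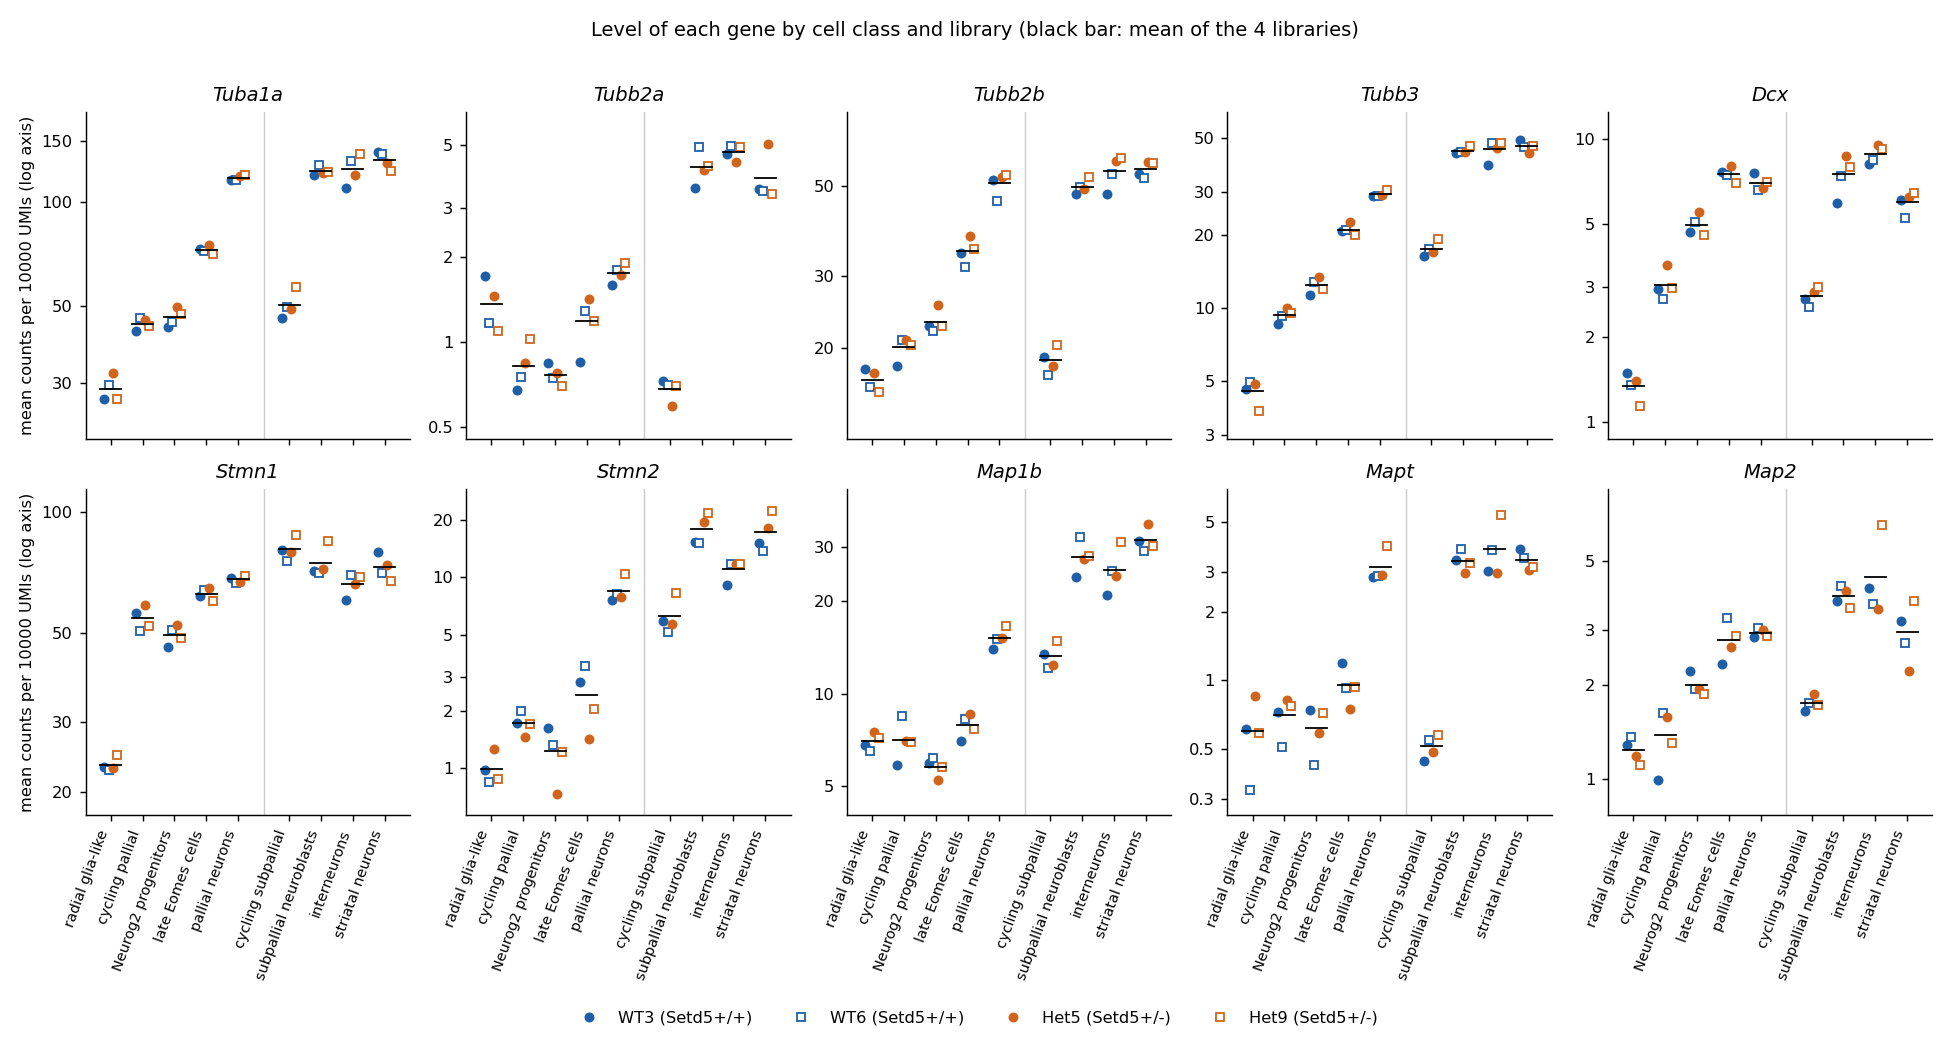
Mean counts per 10000 UMIs (log axis) of each of the 10 genes in the 9 cell classes, 1 point per library, with Setd5+/+ libraries in blue, Setd5+/- libraries in orange and the mean of the 4 libraries as a black bar. The means of Tuba1a, Tubb2b and Tubb3 climb in steps from radial glia-like cells to pallial neurons, Tubb2a stands higher in the subpallial than in the pallial neurons, and Stmn1 is already high in cycling subpallial cells.

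Among the tubulins, Tuba1a was the most abundant of the 10 genes in every class but the cycling ones and the Neurog2 progenitors, where Stmn1 exceeded it. Tuba1a lies on chromosome 15, 98949837 to 98953703, minus strand, of GRCm38 (GENCODE M21). Its level was 26.9, 29.5, 32.1 and 26.9 in radial glia-like cells, and 42.3, 46.3, 45.5 and 43.8 in cycling pallial cells. It averaged 46.4 ± 2.65 in Neurog2 progenitors and 72.8 ± 1.83 in late Eomes cells. In pallial neurons it was 116, 116, 119 and 120. These steps did not overlap between libraries except that from cycling cells to Neurog2 progenitors. On the subpallial side it was 46.2, 49.8, 49.0 and 56.6 in cycling cells, and it averaged 123 ± 3.68 in neuroblasts, 125 ± 12.5 in interneurons and 133 ± 7.76 in striatal neurons. Those 3 classes overlapped with each other.

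Tubb3 (chromosome 8, 123411424 to 123422015, plus strand) stood apart at each step of the pallial classes, though not between clusters. It averaged 4.56 ± 0.541 in radial glia-like cells, 9.36 ± 0.599 in cycling pallial cells, 12.4 ± 0.923 in Neurog2 progenitors, 20.99 ± 1.07 in late Eomes cells and 29.4 ± 0.844 in pallial neurons, and no neighbors in this order overlapped. Cycling subpallial cells were at 16.4, 17.5, 17.03 and 19.2, above every library of cycling pallial cells and of Neurog2 progenitors. The neuroblasts averaged 44.3 ± 1.24, the interneurons 44.9 ± 4.20 and the striatal neurons 46.1 ± 2.42, all above pallial neurons in every library and overlapping with each other.

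Tubb2a and Tubb2b are neighbors on chromosome 13 with 48740 bases and no other protein-coding gene between them (Tubb2a 34074274 to 34078007, Tubb2b 34126748 to 34130466, both on the minus strand). Tubb2b was the more abundant, with 16.7 ± 1.04 in radial glia-like cells, 20.1 ± 1.40 in cycling pallial cells, 51.0 ± 3.33 in pallial neurons, 18.6 ± 1.36 in cycling subpallial cells, 54.5 ± 4.97 in interneurons and 55.1 ± 2.56 in striatal neurons. Its neuron classes overlapped across the lineages. Tubb2a was at 0.677, 0.754, 0.845 and 1.03 in cycling pallial cells and at 1.59, 1.81, 1.74 and 1.91 in pallial neurons. In cycling subpallial cells it was at 0.730, 0.707, 0.593 and 0.703, against 4.66, 4.96, 4.37 and 4.94 in interneurons and 3.50, 3.43, 5.03 and 3.35 in striatal neurons. The lowest subpallial neuron library thus stood above the highest pallial neuron library, while the cycling classes overlapped. Radial glia-like cells held more Tubb2a (1.36 ± 0.284) than cycling cells of either lineage, with no overlap. A small erythroid cluster (29 cells, 2 to 13 per library), which should lack Tubb2a, averaged 1.14 ± 0.488. This was above the 0.827 of cycling pallial and the 0.683 of cycling subpallial cells. The melanocyte and immune clusters, mostly cells with shared barcodes, averaged 0.153 ± 0.126 and 0.641 ± 0.450, below both. Both the rises of Tubb2a and their difference thus start from levels under the erythroid cluster but over the means of those clusters. The part of such UMIs in them was not tested.

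The counts of Tuba1a and Tubb2a are uncertain because of near copies. Of the 50-base stretches in the last 500 bases of the transcript, 56.3% in Tuba1a also occurred in another gene, chiefly Tuba1b, Tuba1c and a pseudogene. For Tubb2a the figure was 42.4%, chiefly shared with Tubb2b. None was shared in the last 500 bases of Tubb2b, Tubb3, Dcx, Stmn2, Map1b, Mapt and Map2, and 2.44% in Stmn1. How the authors' counting treated reads that fit more than 1 gene is not given in the sources used here.

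Bases just before the starts of Tubb2a and Tubb3 are shown, since the mean levels of these member beta tubulins differed between neurons of the lineages. The sequences come from RefSeq (GRCm38.p6), whose promoter table matched 6 of the 10 genes with 7 promoters. For Tubb2a these are the 250 bases at chr13:34078009-34078258, minus strand. For Tubb3 they are the last 30 bases before its RefSeq start, chr8:123411523-123411552, plus strand. That start differs from the GENCODE start (123411424), so these bases lie inside the gene as placed above. Both are written 5′ to 3′, and capitals mark TATAA, the core of the TATA box.
Tubb2a: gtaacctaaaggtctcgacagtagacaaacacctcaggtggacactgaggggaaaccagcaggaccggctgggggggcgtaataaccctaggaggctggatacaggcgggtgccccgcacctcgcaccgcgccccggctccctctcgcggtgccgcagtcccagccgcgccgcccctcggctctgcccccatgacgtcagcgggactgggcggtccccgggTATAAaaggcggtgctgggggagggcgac
Tubb3: TATAAgagggcgcggcggaggctgccgatc
TATAA began 29 bases before the Tubb2a start and 30 bases before the Tubb3 start. On the strand of the gene, 5.57% of the 32851 promoters in the table held TATAA within the last 60 bases. Those of Tuba1a, Map1b and Map2 and both of Dcx did not. The motif was looked for after these sequences had been read, and a match is a description of letters.

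As shares of the family, Tuba1a, Tubb2b and Tubb3 took more of the tubulin UMIs in neurons than in cycling cells. Tuba1a made up 81.4% ± 2.36 of all alpha tubulin UMIs in cycling pallial cells and 71.4% ± 3.14 in cycling subpallial cells, against 96.6% ± 0.225 in pallial neurons, 96.8% ± 0.691 in interneurons and 97.2% ± 0.541 in striatal neurons. The rest was almost all Tuba1b, the alpha tubulin that most cells use, at 18.2% and 27.7% in the cycling classes and 2.82 to 3.19% in those neurons. Among beta tubulin UMIs, Tubb3 took 14.1% in cycling pallial cells and 21.5% in pallial neurons, and 17.2% in cycling subpallial cells and 25.0 to 26.7% in interneurons and striatal neurons. Tubb2b took 30.2% and 37.3% on the pallial side, and 18.2% and 30.4 to 31.8% on the subpallial side, but its largest share, 39.9%, was in radial glia-like cells. Tubb2a took 1.29% of beta tubulin UMIs in pallial neurons, 2.65% in interneurons and 2.21% in striatal neurons. Tubb5, the widely used beta tubulin and no member, was also lower in pallial neurons than in interneurons (52.7 against 73.3 counts per 10000, log2 difference -0.47, adjusted p = 8.86e-06 from limma) and striatal neurons (66.2). It took 51.2% in cycling pallial cells and 38.6% in pallial neurons, while its own level was 34.02 and 52.7 counts per 10000. It took 60.4% in cycling subpallial cells and 38.2 to 40.8% in interneurons and striatal neurons. Since Tuba1a and Tuba1b share much of their 3′ ends, the split between them depends on the authors' counting.

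**Figure D2:**
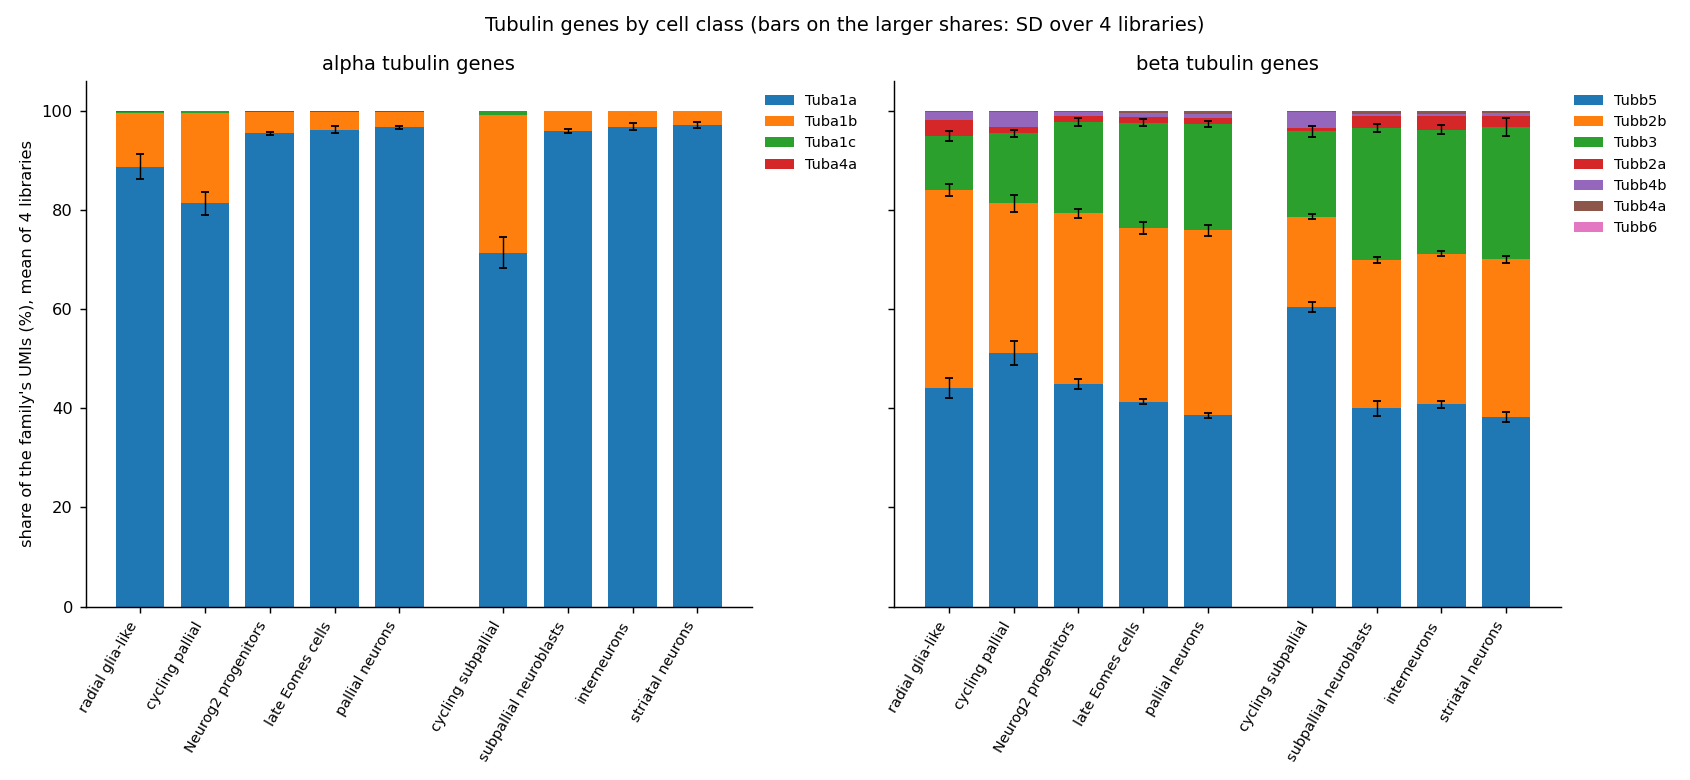
Share of all alpha tubulin UMIs (left) and of all beta tubulin UMIs (right) taken by each gene in the 9 cell classes, as stacked bars of the mean of 4 libraries, with the SD of the larger shares. Tuba1b takes 10.9 to 27.7% in radial glia-like and cycling cells and 2.82 to 4.20% in the other classes, and Tubb5 takes its largest share, 60.4%, in cycling subpallial cells.

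Dcx, the microtubule binder of migrating neurons, lies on the X chromosome (143855842 to 143933311, minus strand). It averaged 1.35 ± 0.151 in radial glia-like cells, 3.06 ± 0.373 in cycling pallial cells, 4.96 ± 0.438 in Neurog2 progenitors, 7.53 ± 0.413 in late Eomes cells and 6.99 ± 0.424 in pallial neurons, with the last pair overlapping. In cycling subpallial cells it averaged 2.79 ± 0.196, and in neuroblasts 7.49 ± 1.16. Interneurons had the highest mean, at 8.14, 8.40, 9.55 and 9.22, and striatal neurons the lowest among the neurons, at 6.07, 5.27, 6.25 and 6.42. Striatal neurons lay below pallial neurons and interneurons in every library, while neuroblasts overlapped with all 3.

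The stathmins behaved unlike each other. Stmn1 (chromosome 4, 134468320 to 134473843, plus strand) averaged 23.4 ± 0.885 in radial glia-like cells and 49.5 to 68.0 in the other pallial classes. In cycling pallial cells it was 56.1, 50.5, 58.7 and 52.0, and in pallial neurons 68.7, 66.7, 67.0 and 69.5. Its highest mean was in cycling subpallial cells, at 80.3, 75.5, 79.6 and 87.7, against 60.5, 69.9, 66.1 and 68.7 in interneurons. Those last groups did not overlap, with the cycling cells above, while striatal neurons (72.8 ± 5.15) overlapped with both.
Stmn2 (chromosome 3, 8509360 to 8561606, plus strand), a stathmin of neurons and their growth cones, was at 1.72, 1.98, 1.45 and 1.70 in cycling pallial cells and 7.60, 8.17, 7.85 and 10.4 in pallial neurons. In cycling subpallial cells it was already at 5.89, 5.15, 5.71 and 8.28, above every cycling pallial library. It averaged 18.0 ± 3.27 in neuroblasts, 11.1 ± 1.34 in interneurons and 17.3 ± 3.75 in striatal neurons, and interneurons lay below the other neuron classes of the subpallium in every library.

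Of the microtubule-associated proteins, Map1b (chromosome 13, 99421446 to 99516540, minus strand), the one made earliest in development, was the most abundant. It was at 5.86, 8.43, 6.99 and 6.96 in cycling pallial cells and 14.01, 15.1, 15.2 and 16.6 in pallial neurons. Cycling subpallial cells were at 13.5, 12.1, 12.4 and 14.9, which overlapped with pallial neurons. Interneurons averaged 25.3 ± 4.26 and striatal neurons 31.5 ± 2.86, both above pallial neurons in every library. The 250 bases before its start (chr13:99516603-99516852, minus strand, RefSeq GRCm38.p6, 5′ to 3′) are shown because this was the only member promoter with CAGATG, an E-box that proneural factors of the basic helix-loop-helix family are known to bind, written in capitals.
Map1b: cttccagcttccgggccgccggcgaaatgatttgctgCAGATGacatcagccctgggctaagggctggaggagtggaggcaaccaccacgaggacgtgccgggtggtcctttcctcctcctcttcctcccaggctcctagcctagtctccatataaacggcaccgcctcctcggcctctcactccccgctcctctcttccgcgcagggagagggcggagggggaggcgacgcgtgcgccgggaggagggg
The motifs CAGATG and CAGCTG were searched on both strands. CAGATG occurred in 14.4% of all 32851 promoters and CAGCTG in 13%, and CAGCTG in none of the 7 member promoters. Bases before the start were G or C in 66.4% for Map1b and 68.4% for Tubb2a, in 81.2% for Map2, 68% for Tubb3, 56.8% for Tuba1a and 41.6% and 44.8% for Dcx, beside a median of 52.4% over all promoters.

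Mapt (chromosome 11, 104231390 to 104332090, plus strand), which encodes the axonal protein tau, was low in every class but the neurons. It averaged 0.596 to 0.950 in the pallial classes before neurons and 0.512 ± 0.0601 in cycling subpallial cells. Pallial neurons were at 2.86, 2.88, 2.91 and 3.92, neuroblasts averaged 3.36 ± 0.328, interneurons 3.77 ± 1.10 and striatal neurons 3.37 ± 0.327, and these 4 classes overlapped. The share of cells with at least 1 Mapt UMI was 20.3% in cycling pallial cells and 61.8% in pallial neurons, and 12.3% and 47.0% when every cell was thinned to 3000 UMIs. Mapt UMIs were found in 4.08% of cells in the melanocyte cluster (median 5362 UMIs, close to the 5373 of pallial neurons), which should lack it, and in 3.25% of them after thinning. Of the 147 cells of that cluster, 140 carried the barcodes shared by all libraries. The erythroid cluster, which should lack these genes too, had mean levels of 0.716 ± 0.622 for Mapt and 2.98 ± 1.78 for Stmn2, against 0.707 and 1.72 in cycling pallial cells. Map1b (6.42 ± 1.18) and Tubb3 (6.76 ± 4.11) in that cluster were below but near the 7.06 and 9.36 of cycling pallial cells. The part of such UMIs in the low levels of these genes was not tested.
Map2 (chromosome 1, 66175273 to 66442583, plus strand), a protein of dendrites, averaged 1.24 ± 0.108 in radial glia-like cells, 1.38 ± 0.294 in cycling pallial cells, 2.00 ± 0.151 in Neurog2 progenitors, 2.79 ± 0.398 in late Eomes cells and 2.94 ± 0.0945 in pallial neurons. On the subpallial side it averaged 1.75 ± 0.0871 in cycling cells, 3.85 ± 0.280 in neuroblasts, 4.43 ± 1.41 in interneurons and 2.96 ± 0.641 in striatal neurons. Het9 stood apart among the interneurons, at 6.51 against 3.49 to 4.09 in the other libraries. Lhx8, a factor of ventral subpallial neurons, was at 0.191 in the interneurons of Het9 and at 1.73, 3.02 and 1.87 in those of WT3, WT6 and Het5, and its part in the Map2 value was not tested.

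The rise within a lineage was taken in each library as log2(level + 0.1) in neurons minus that in cycling cells. For the subpallial lineage, interneurons and striatal neurons were averaged on the log2 scale. It is a description, since the genes are known for it. In the pallial lineage the difference was above 0 for 10 of 10 genes, from 0.32 ± 0.11 (SD, n = 4) for Stmn1 to 2.24 ± 0.26 for Stmn2, with a median of 1.26. In the subpallial lineage it was above 0 for 9 of 10, from -0.22 ± 0.11 for Stmn1 to 2.56 ± 0.12 for Mapt, with a median of 1.35. The medians over all genes tested were 0.03 and 0.05. Of all genes tested, 48.5% and 39.5% differed between neurons and cycling cells in the 2 lineages at an adjusted p under 0.05 (limma with Benjamini-Hochberg adjustment), so a change along either lineage is common in these data. The value for Stmn1 in the pallial lineage was -0.01 when classes were taken from clusters, and so its sign rests on how cells were classed.

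Whether the rise differed between lineages was tested, as the genes were chosen for the rise and not for its difference between lineages. Earlier results of these data were, however, known when the genes and tests were chosen. The test was limma on 1 difference per library, with Benjamini-Hochberg adjustment over all genes, and 10.9% of 7990 genes were called. Of the 10 genes, 5 were called, 3 with the larger rise in the pallial lineage and 2 with the larger rise in the subpallial lineage.
Tubb2a rose more in the subpallial lineage. Its pallial rise was 1.12, 1.16, 0.96 and 0.83 and its subpallial rise 2.32, 2.39, 2.79 and 2.38, a difference of -1.45 (SE 0.14, adjusted p = 5.27e-08), lower in 4 of 4 libraries.
Stmn2 rose more in the pallial lineage, by 1.10 (SE 0.10, adjusted p = 3.63e-08), with values of 1.09, 0.70, 1.02 and 1.59. Its level in cycling pallial cells was 1.79 lower on the log2 scale than in cycling subpallial cells.
Stmn1 differed by 0.54 (SE 0.05, adjusted p = 5.70e-08), higher in 4 of 4 libraries.
For Tubb3 the difference was 0.27 (SE 0.06, adjusted p = 0.00286), with values of 0.33, 0.22, 0.15 and 0.38.
Mapt differed by -0.55 (SE 0.14, adjusted p = 0.00979). That call is not firm. It was lost without WT3 (-0.46, adjusted p = 0.0794) or without Het5 (-0.50, adjusted p = 0.0543), and the sign turned to 0.22 with a minimum of 3 marker UMIs and to 0.24 with classes from clusters.
Tubb2b was just past the limit (-0.21, SE 0.07, adjusted p = 0.0504), and it was called without WT3 (-0.31, adjusted p = 0.000368) or without Het9 (-0.24, adjusted p = 0.0482). Its sign turned to 0.04 with a minimum of 3 marker UMIs and to 0.15 with classes from clusters. The 95% intervals of the difference were -0.05 to 0.15 for Tuba1a, -0.39 to 0.03 for Dcx, -0.15 to 0.19 for Map1b and -0.18 to 0.36 for Map2, before adjustment.

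**Figure D3:**
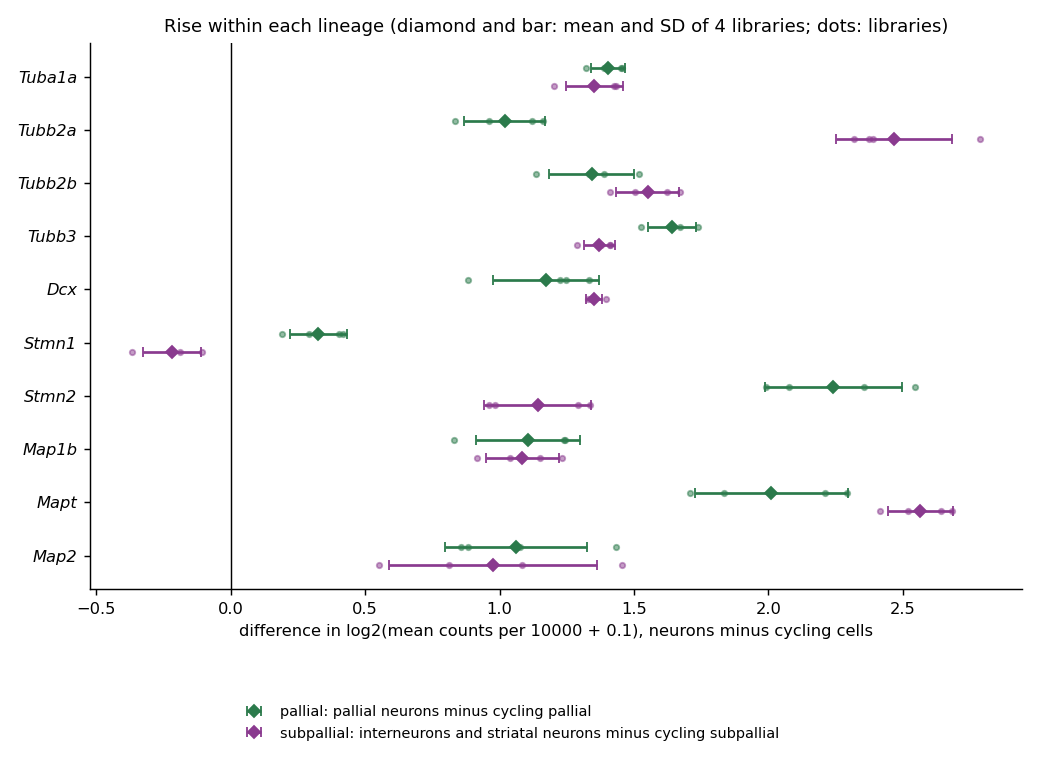
Difference in log2(mean counts per 10000 + 0.1) between neurons and cycling cells for each gene in the pallial (green) and the subpallial (purple) lineage, with the mean and SD of 4 libraries and the libraries as dots. The lineages part for Tubb2a, with 1.02 against 2.47, for Stmn2, with 2.24 against 1.14, and for Stmn1, which lies on either side of 0.

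Neurons of the 2 lineages were also compared directly within each library. Between pallial neurons and interneurons 14.6% of 7819 genes were called, 5.84% as lower and 8.71% as higher in pallial neurons. Of the 10 genes, 6 were lower in pallial neurons and none was higher. The difference was -1.38 for Tubb2a (SE 0.12, adjusted p = 2.86e-09), -0.72 for Map1b (SE 0.08, adjusted p = 1.52e-07) and -0.61 for Tubb3 (SE 0.07, adjusted p = 4.32e-07), each lower in 4 of 4 libraries. For Map2, Stmn2 and Dcx it was -0.53, -0.38 and -0.33 (adjusted p = 0.00711, 0.00434 and 0.0147). These last calls were lost when some library was left out: Dcx without WT6 or Het5 (adjusted p = 0.0868 and 0.118), Stmn2 without the same libraries (adjusted p = 0.0704 and 0.0543) and Map2 without Het9 (adjusted p = 0.0928). The Dcx and Map2 calls were also lost with cells thinned to 3000 UMIs (adjusted p = 0.165 and 0.0678). The interneurons were shallower, with a median of 3702.5 UMIs against 5373 in pallial neurons.
Against striatal neurons, 10.9% of 7796 genes were called, 4.36% as lower and 6.55% as higher in pallial neurons, and 5 of the 10 genes were lower in pallial neurons. The difference was -1.06 for Tubb2a (SE 0.14, adjusted p = 7.92e-06), -1.04 for Map1b (SE 0.07, adjusted p = 5.12e-10), -1.004 for Stmn2 (SE 0.08, adjusted p = 1.09e-08), -0.65 for Tubb3 (SE 0.06, adjusted p = 3.10e-08) and -0.17 for Tuba1a (SE 0.05, adjusted p = 0.0177). The Tuba1a call was lost without WT3, WT6 or Het5 (adjusted p = 0.0802 to 0.154). Tubb2a, Tubb3, Map1b and Stmn2 were thus lower in pallial neurons in both comparisons, which share the pallial neurons. The Stmn2 call against interneurons was also lost with a minimum of 3 marker UMIs and with no filter on low values. Clusters matched to pallial neurons were unlike (170, 1215 and 1041 cells). Stmn2 averaged 10.9, 2.50 and 11.1 in them, and Map1b 14.9, 7.12 and 18.7. The interneuron cluster was at 14.3 and 28.2. The part of this mix of pallial cells in the comparisons was not tested.

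A comparison of the cycling classes was added after the levels had been seen. It called 31.8% of 7853 genes, 12.9% as lower and 18.9% as higher in cycling pallial cells, and 7 of the 10 genes, 6 of them lower in cycling pallial cells. The difference was -1.79 for Stmn2 (SE 0.09, adjusted p = 8.91e-16), -0.90 for Tubb3 (SE 0.05, adjusted p = 1.71e-15), -0.90 for Map1b (SE 0.07, adjusted p = 8.43e-12), -0.57 for Stmn1 (SE 0.03, adjusted p = 4.50e-14), -0.34 for Map2 (SE 0.10, adjusted p = 0.00603) and -0.18 for Tuba1a (SE 0.04, adjusted p = 0.000273). The Map2 call was lost without WT3 (-0.23, adjusted p = 0.0830). Mapt was higher by 0.39 (SE 0.13, adjusted p = 0.0248), a call lost without WT3 or Het5 (adjusted p = 0.130 and 0.184) and of the opposite sign, -0.85, with classes from clusters (adjusted p = 0.00202). Tubb2b, at 0.11 (adjusted p = 0.0900), was lower in cycling pallial cells with a minimum of 3 marker UMIs (-0.17, adjusted p = 0.0209) and with classes from clusters (-0.47, adjusted p = 3.39e-08). Stmn2 had at least 1 UMI in 66.4% of cycling subpallial cells and in 33.7% of cycling pallial cells, and in 54.1% and 18.3% after thinning to 3000 UMIs, against 3.25% in the melanocyte cluster. The erythroid cluster, at 2.98 ± 1.78 Stmn2 counts per 10000, was above the 1.72 ± 0.216 of cycling pallial cells, and the part of such UMIs in the comparison was not tested.

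Other genes of microtubules were taken from 7 lists by gene family, 74 genes in all, of which 72 were in the table. In the pallial lineage 63 passed the filter on low values, 42 of them rose and 7 fell, where 25.4% of all 7997 genes tested were called higher and 1854 were called lower. In the subpallial lineage 61 passed, 39 rose and 9 fell, where 21% of all 7820 genes tested were called higher and 1444 were called lower. The median over those that passed was 0.52 and 0.48. All p-values of these lists are from limma with Benjamini-Hochberg adjustment over all genes.
The remaining tubulins went both ways, with 3 up and 3 down of 7 in the pallial lineage and 2 up and 4 down of 6 in the subpallial lineage. Tuba1b fell by 1.34 in the pallial lineage (adjusted p = 1.52e-13) and by 2.28 in the subpallial lineage (adjusted p = 1.47e-15). Tuba1c fell by 1.35 and 2.65. Tubb4a, a beta tubulin of mature neurons and glia, rose by 1.76 and 1.86, with levels of 0.855 and 1.05 counts per 10000 in neurons. Tuba4a rose by 1.18 in the pallial lineage. Tubb5 rose by 0.17 in the subpallial lineage (adjusted p = 0.0102).
In the stathmin and doublecortin family 4 of 4 rose in each lineage. Stmn4, a stathmin of neurons, rose by 2.17 in the pallial lineage (adjusted p = 1.02e-14) and 1.69 in the subpallial lineage (adjusted p = 5.72e-11), Stmn3 rose by 1.39 in the pallial lineage, and Dclk1, the doublecortin-like kinase, rose by 1.18 in the subpallial lineage. Dclk2 was 2.76 lower on the log2 scale in pallial neurons than in interneurons (0.544 against 4.26 counts per 10000, adjusted p = 5.48e-13).
Of the microtubule-associated proteins 5 of 9 rose and none fell in the pallial lineage, and 6 of 7 rose and 1 fell in the subpallial lineage. Dpysl3, which binds tubulin in growth cones, rose by 1.57 and 1.02. Map9 rose by 0.84 and 1.35. Map1a, the Map1b relative of mature neurons, fell by 1.001 in the subpallial lineage (adjusted p = 0.000172).
Of the end-binding proteins 10 of 13 rose and 1 fell in the pallial lineage, and 7 of 12 rose and 1 fell in the subpallial lineage. Nav1 rose by 1.40 in the pallial lineage, Slain1 rose by 1.28 in the subpallial lineage, and Mapre3 rose by 0.90 and 1.64. Ckap5, a polymerase of spindle microtubules, fell by 0.37 and 1.51.
Among motors and dynein regulators 9 of 14 rose and 2 fell in the pallial lineage, and 12 of 15 rose and 1 fell in the subpallial lineage. Kif5a, a neuronal kinesin, rose by 1.43 and 1.76, Kif5c rose by 1.02 in the pallial lineage, and Kif21b rose by 1.76 in the subpallial lineage. Nde1, a dynein partner of dividing progenitors, fell by 2.64 in the pallial lineage (adjusted p = 5.79e-12) and by 3.16 in the subpallial lineage (adjusted p = 1.57e-10). Kif21a fell by 0.20 in the pallial lineage.
Of severing and tubulin-modifying enzymes 7 of 11 rose and 1 fell, and 6 of 12 rose and 2 fell. Ttll1, a tubulin polyglutamylase subunit, rose by 1.21 and 1.37. Vash2, of the tubulin detyrosinases, rose by 0.94 in the pallial lineage, and Atat1, the tubulin acetylase, rose by 1.37 in the subpallial lineage. Katna1, the katanin catalytic subunit, fell by 0.55 and 0.62, and Fign, another severing enzyme, fell by 0.95 in the subpallial lineage. Of the tubulin folding cofactors 4 of 5 and 2 of 5 rose and none fell, with Tbcc at 0.56 and 0.46, Tbcd at 0.50 in the pallial lineage and Tbce at 0.63 in the subpallial lineage.
Whether the rise differed between lineages was also tested for these lists. Of 64 genes that passed the filter, 9 were called with a difference, pallial minus subpallial, above 0 and 7 below 0. Of all genes, 5.93% and 4.98% were so called. A difference above 0 is a larger pallial rise or a smaller pallial fall. Tuba1b and Tuba1c fell in both lineages, and less in the pallial lineage. Among the tubulins that are no members, 4 of 6 were called above 0 and none below. Their median difference was 0.70, against 0.01 over all genes tested. In the stathmin and doublecortin family these counts were 2 of 4 and none. None of the 15 motors was called above 0 and 5 were called below, among them Kif21b, whose difference was -0.91 (SE 0.19, adjusted p = 0.00131).

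The genes whose levels followed the group most closely were Cdk5r1, Dpysl3, Stmn3, Klf7 and Crmp1. Likeness was Pearson's r between a gene's log2 level and the mean z-score of the 10 genes over 36 points (9 classes in 4 libraries), computed for 3168 genes with a mean of at least 0.5. It was 0.980 for Cdk5r1, which encodes the activator of the neuronal kinase Cdk5, 0.977 for Dpysl3, 0.968 for Stmn3, 0.952 for the transcription factor gene Klf7 and 0.952 for Crmp1, a relative of Dpysl3. The points share libraries, classes and depth, so r is a description. Within the group, Stmn2 and Map1b were alike (r = 0.957), as were Tuba1a and Tubb2b (r = 0.972), while Stmn1 and Tubb2a were the least alike (r = 0.264).

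The study compared genotypes, and Setd5 itself was checked first. Over all cells it averaged 1.20, 1.09, 0.530 and 0.584 counts per 10000, lower in both Setd5+/- libraries (log2 difference -0.92, SE 0.08, adjusted p = 0.00684 from limma). The genotypes also differed in sex. Xist was at 21.3 and 22.0 in the Setd5+/+ libraries and 0.0379 and 0.138 in the Setd5+/- libraries, and Eif2s3y of the Y chromosome was at 0 in the former and at 0.592 and 0.697 in the latter. Genotype and sex cannot be told apart in these 4 fetuses, which matters for the X-linked Dcx above all.
Over all cells, none of the 10 genes was called between genotypes, beside 0.087% of 8047 genes, and none was at an unadjusted p under 0.05 (limma). The differences ranged from -0.09 for Tubb2a (95% interval -0.34 to 0.16) to 0.07 for Tubb2b (-0.09 to 0.23). Tuba1a was at 76.7, 76.0, 73.1 and 80.4, Stmn1 at 63.1, 58.7, 60.02 and 62.1 and Dcx at 5.20, 4.63, 4.88 and 5.22 counts per 10000. The genotypes overlapped for all 10, and 32.4% of all genes did not overlap.
In pallial neurons, the class with the most cells, none was called either, beside 0.116% of genes, and Mapt was the 1 gene at an unadjusted p under 0.05. The 95% interval was -0.06 to 0.15 for Tuba1a, -0.08 to 0.17 for Tubb3, -0.10 to 0.13 for Stmn1 and 0.0034 to 0.45 for Mapt. The 4 libraries of Mapt were at 2.86, 2.88, 2.91 and 3.92 counts per 10000, so that Het9 alone stood apart. The genotypes did not overlap for 5 of the 10 genes, where 33.4% of all genes did not. Without Het5, Mapt (0.44, adjusted p = 0.0491) and Stmn2 (0.40, adjusted p = 0.0107) passed the test, in a setting that called 33 of 7726 genes rather than 9 of 7750.

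Stmn2 was the exception among the classes. In late Eomes cells it was at 2.82 and 3.41 counts per 10000 in the Setd5+/+ libraries and at 1.42 and 2.05 in the Setd5+/- libraries, a log2 difference of -0.82 (SE 0.16, adjusted p = 0.00182 from limma), beside 0.182% of 7685 genes called. The genotypes did not overlap, which held for 34.6% of genes in this class and for 2 of the 10 genes. The UMIs were unevenly spread over cells. In each library 43.1 to 67.4% of the Stmn2 UMIs of late Eomes cells lay in the 5 cells that held most, and the share of cells with at least 1 UMI was 36.6% and 34.9% against 29.8% and 31.5%. Cells with at least 1 UMI of the subpallial marker genes made up 26.8% and 20.5% against 23.8% and 15.1%, and their part in the result was not tested. The call was lost when UMIs were summed over cells (adjusted p = 0.466), with cells thinned to 3000 UMIs (adjusted p = 0.148), with no filter on low values (adjusted p = 0.0616), without WT6 (adjusted p = 0.282) and without Het5 (adjusted p = 0.436), with differences of -0.58 to -0.95 in these settings.
In the other classes none of the 10 genes, Stmn2 included, passed the test. The share of all genes called was 0.11% in radial glia-like cells, 0.0878% in cycling pallial cells, 0.118% in Neurog2 progenitors, 0.12% in cycling subpallial cells, 0.079% in neuroblasts, 0.0393% in interneurons and 0.0131% in striatal neurons. The Stmn2 differences were -0.58 in Neurog2 progenitors, 0.31 in cycling subpallial cells, 0.43 in neuroblasts and 0.47 in striatal neurons, each at an unadjusted p under 0.05 and with adjusted p from 0.390 to 0.996. Leaving out 1 library brought a call in Neurog2 progenitors (-0.91 without Het9, adjusted p = 0.00157) and in cycling subpallial cells (0.58 without Het5, adjusted p = 0.000294). Leaving out the other Setd5+/- library instead gave -0.25 and 0.05. The Stmn2 difference was below 0 in cycling pallial cells, Neurog2 progenitors and late Eomes cells and above 0 in the other 6 classes, but it turned to 0.33 in Neurog2 progenitors with classes from clusters, and the difference between classes was not tested. Beside it, the Stmn2 rise in the pallial lineage was 2.08 and 1.99 in the Setd5+/+ libraries and 2.35 and 2.55 in the Setd5+/- libraries (difference 0.42, adjusted p = 0.893), with a sign that turned to -0.12 with a minimum of 3 marker UMIs.
For the rise within each lineage, 0 of all genes were called between genotypes in either lineage by limma (432 and 409 at an unadjusted p under 0.05). For the 10 genes, 1 was at an unadjusted p under 0.05 in the pallial lineage and none in the subpallial lineage. The 95% intervals in the pallial lineage were -0.07 to 0.13 for Tuba1a, -0.24 to 0.07 for Tubb3 and -0.54 to 0.33 for Mapt.

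**Figure D4:**
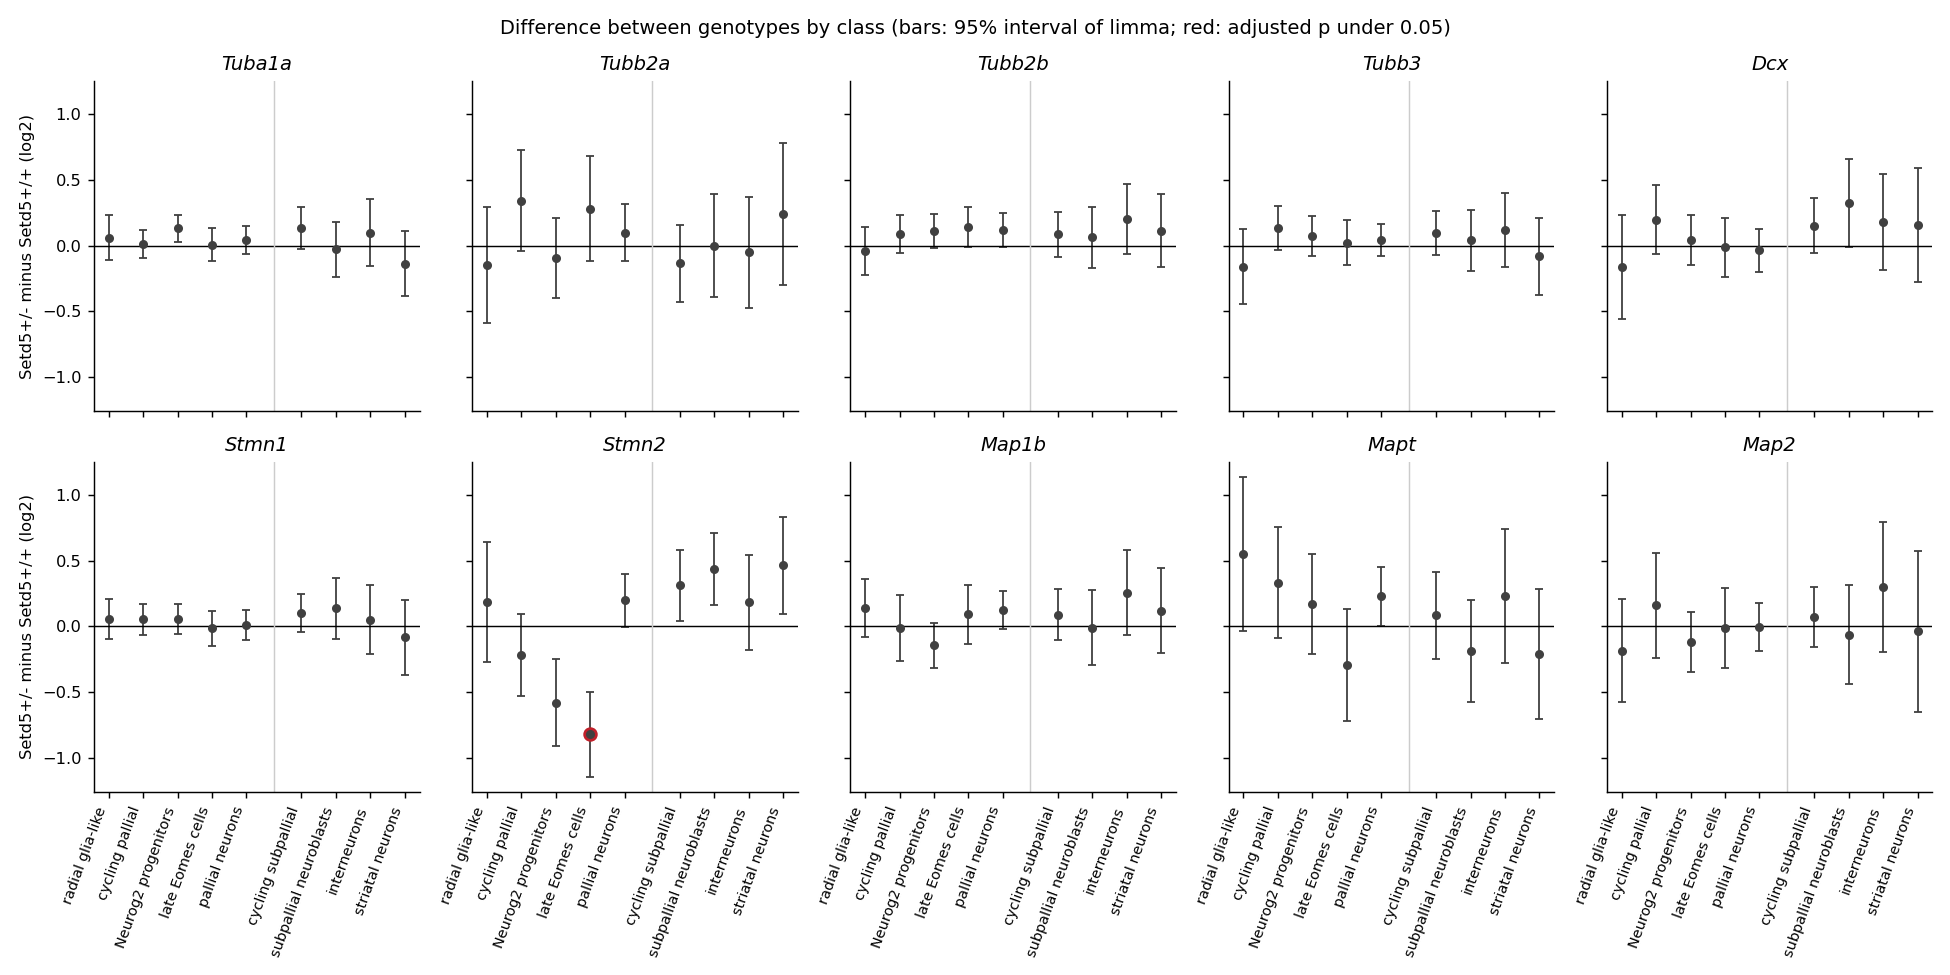
Log2 difference between Setd5+/- and Setd5+/+ libraries for each gene in the 9 classes, with the 95% interval of limma before adjustment and in red the 1 value with an adjusted p under 0.05, Stmn2 in late Eomes cells at -0.82. For Tuba1a, Tubb2b, Tubb3 and Stmn1 the values lie between -0.16 and 0.20 in every class.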

How the data were processed

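For sc RNA-Seq, the authors deposited 1 table of natural log values, in which the counts of a gene per 10000 UMIs of its cell had 1 added before the log was taken. Per the submitters' processing notes, Cell Ranger 2.1, Seurat 2.3.0 and mm10 were used. Which annotation, strand setting and cell filters went into it could not be learned from the labels or the methods. Library prefixes in the cell names give the genotype. All 14848520 values above 0 came back as whole UMIs (tolerance 0.001). The study also made bulk RNA-Seq, which was not analysed here.

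Classes were set by UMI sums of marker genes: at least 2 for cycling, lineage and neuron sums, 3 for radial glial genes and 80% of lineage UMIs from 1 lineage. Cells with 3 or more UMIs of other cell types were left out. Lineages and genotypes were compared with limma 3.58.1 (R 4.3.3, variance trend) on log2(mean + 0.1), for genes with a mean of at least 0.1, with Benjamini-Hochberg adjustment over all genes and a threshold of 0.05. This scale understates fold changes of low genes. The plan set this test for log values, and it was kept although UMIs could be recovered. Fetuses were the replicates. Since limma draws the variance of each gene toward that of genes of like level, an SE can be well under what 4 libraries alone give (0.104 for the Stmn2 difference in rise, whose library SD was 0.367), and p-values rest on other genes too. Cells called doublets by Scrublet (64, 0.975%) were kept.

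For the alternative classes, Leiden clustering (resolution 0.4, 2000 variable genes, 20 components and neighbors, without the microtubule genes and Setd5) gave 14 clusters, which were matched to classes after they were seen. Other alternatives were pseudocounts of 0.01 and 1, no filter, summed UMIs, median-of-ratios scaling, shared barcodes kept, doublets removed, thinning to 3000 UMIs, a minimum of 3 and each library left out. The fit was also run on simulated data, whose outcome is not given here. The genes, lists and tests were chosen with earlier results of these data known. The named genes were all 10 members, up to 2 genes of largest rise and of largest fall per list and lineage, the 5 genes closest in pattern, and Setd5. Others named (the sex genes, markers and Dclk2, Tubb5 and Kif21b between classes) were chosen after their values were seen or by the marker list. Python 3.11.15, scanpy 1.11.5 and leidenalg 0.10.2 were used.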

Additional observations from a re-analysis of the deposited data

Results flagged for a closer look

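A difference between the lineages in the size of the rise from cycling cells to neurons singled out 5 genes, each by limma with Benjamini-Hochberg adjustment on the within-library differences of 4 libraries. The pallial rise was larger for Stmn2 (1.10), Stmn1 (0.54) and Tubb3 (0.27), and smaller for Mapt (-0.55) and Tubb2a (-1.45), all on the log2 scale. For Stmn2, Stmn1 and Tubb3 the cycling classes also differed, with lower levels in cycling pallial cells, whereas for Tubb2a the cycling classes overlapped, with a difference of 0.23 that was -0.69 (adjusted p = 0.0072 from limma) with classes from clusters. In neurons, Tubb2a, Tubb3 and Stmn2 were lower on the pallial side in both comparisons, but the Stmn2 call against interneurons (-0.38) was lost without WT6 (adjusted p = 0.0704), without Het5 (adjusted p = 0.0543), with a minimum of 3 marker UMIs (adjusted p = 0.125) and with no filter (adjusted p = 0.0510). The value for Mapt did not keep its sign when the classes were set in another way.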

How the results depend on the processing

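No paired analysis was possible because the library prefixes carry no replicate number, so a prefix cannot be matched to a number in the labels. This concerns the genotypes, since classes and lineages were compared within each library. In 4 libraries, differences under about the replicate spread could not be seen. Interneurons and striatal neurons were the smallest classes, with 23 cells in 1 library at the lowest. Where a value below turned or a call changed, the cause was not tested. Log2 values were followed in the alternatives for the rises and lineage differences of the 10 genes and for the median rises. The same was done for the genotype differences of Stmn2 in 5 classes and its pallial rise, and for Setd5 in all cells. Of these, 834 values kept their sign and call or, for rises, shifted by less than the SD of the libraries. Another 48, all rises, shifted by more, 29 turned in sign, 35 lost and 18 gained a call.

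The median rise of the 10 genes in the pallial lineage was 1.564 with a minimum of 3 marker UMIs, 1.611 with clusters and 1.144 with a pseudocount of 1, against 1.258. In the subpallial lineage it was 1.395 with summed UMIs, 1.227 with median-of-ratios scaling, 1.393 with a minimum of 3, 1.427 with clusters and 1.228 with a pseudocount of 1, against 1.352. The Stmn1 pallial rise was -0.011749 with clusters.

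For the rise in the pallial minus that in the subpallial lineage, a minimum of 3 gave 0.028392 for Dcx, 0.22018 for Mapt and 0.03655 for Tubb2b. Clusters gave 0.2388 for Mapt and 0.15148 for Tubb2b, and a pseudocount of 1 gave -0.021405 for Map1b. With each library left out in turn, Map2 ranged from -0.0012486 to 0.24187, Map1b from -0.081504 to 0.13441 and Tuba1a from -0.014099 to 0.10636.

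Between pallial neurons and interneurons, Tuba1a was 0.011289 with summed UMIs, Stmn1 was -0.028983 with thinning and -0.086074 with clusters, and Stmn1 ranged from -0.01057 to 0.07234 with a library left out. With no filter on low values 3 of the 10 genes were called, beside 1009 of 14613 genes. Between pallial and striatal neurons, Map2 was -0.014917 with summed UMIs and -0.01445 with thinning and ranged from -0.12141 to 0.14029 with a library left out, and 8 of the 10 genes were called with clusters, beside 1451 of 7768 genes.

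In the comparison of cycling classes, added after the data had been seen, a minimum of 3 gave -0.1325 for Dcx, -0.31854 for Mapt, -0.12648 for Tubb2a and -0.1702 for Tubb2b. Clusters gave -0.84653 for Mapt, -0.69259 for Tubb2a and -0.47476 for Tubb2b. Of these, Tubb2b with a minimum of 3 and all 3 genes with clusters passed the test in the turned direction. The genotype differences of the other 9 genes were followed only as counts of calls.

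Between genotypes, 0 of the 10 genes were called by limma in late Eomes cells with summed UMIs, thinning or no filter, and 0 to 1 with a library left out (0 without WT6 or Het5). With a library left out, 0 to 1 were called in Neurog2 progenitors and cycling subpallial cells and 0 to 2 in pallial neurons. The calls came without Het9 in Neurog2 progenitors (beside 8 of 7653 genes) and without Het5 in cycling subpallial cells (beside 78 of 7489 genes, against 9 with all libraries) and pallial neurons (beside 33 of 7726 genes), and thinning gave 1 in neuroblasts. The lone library of a genotype was then assumed to vary like the others. With clusters, which have no counterpart of late Eomes cells or neuroblasts, the Stmn2 difference was 0.33368 in Neurog2 progenitors and -0.27043 in the pallial rise, and with a minimum of 3 the latter was -0.12222.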
